A study of Homo sapiens with 12 samples.

Results

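The genes described are NOS3, the endothelial nitric oxide synthase, and 9 genes that supply, bind or oppose it: CAV1, GCH1, DDAH1, DDAH2, ARG2, HSP90AA1, NOSIP, NOSTRIN and ASS1. They were taken by symbol from 30934 gene symbols on the array, which gave 17 probes for the 10 genes. All of those probes are accounted for below. A probe was tested where its signal was above the negative controls (detection p under 0.05) on at least 3 arrays. That held for 16 probes of 9 genes, and NOSTRIN was not tested.

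The cells were EA.hy926, a human hybrid line of umbilical vein endothelium and a lung carcinoma. Per the labels they express no estrogen receptor alpha of their own. "Control cells" carry the empty pCDNA 3.1 backbone and "receptor cells" the pCMV3-ERalpha plasmid with the human receptor. All cells were transfected with PolyFect, selected with puromycin at 5 µg/ml and kept at 2 µg/ml, starting from 8 to 10 single colonies. The labels do not say whether those colonies were pooled, or whether a replicate number stands for a clone. All cells spent 24 h in serum-free medium and then received 10 nM 17-beta-estradiol (E2) or ethanol vehicle for 16 h. The 4 groups (control vehicle, control estradiol, receptor vehicle, receptor estradiol) had 3 Illumina BeadChip arrays each, numbered as replicates 1 to 3.

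Nitric oxide synthase in the endothelium makes nitric oxide and citrulline from arginine, and the gas relaxes the smooth muscle of the vessel wall. The enzyme needs tetrahydrobiopterin, whose synthesis starts with GCH1. It sits in caveolae, where CAV1 holds it inactive, and HSP90AA1, an isoform of the chaperone HSP90, helps its activation. ASS1 takes part in turning citrulline back into arginine, ARG2 (the mitochondrial arginase) consumes arginine, and DDAH1 and DDAH2 break down methylarginines that inhibit the synthase. NOSIP and NOSTRIN bind the enzyme and move it away from the plasma membrane. Estradiol acting through its receptor is known to activate the enzyme in endothelial cells. The comparisons here set the transcript levels of the 2 transfected lines, and of the treatments within each, against each other.

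Members called in a comparison were NOS3, ASS1 and ARG2, so their upstream sequences are shown. Each is the 250 bases before the first-listed start in RefSeq (GRCh38.p14), written 5′ to 3′ on the gene's strand, and 9 of the 10 genes had an entry. Capitals mark the GC box GGGCGG on either strand, so CCGCCC as well. The GC box is the site bound by SP1. The estrogen response element half-site GGTCA, or TGACC, would also be in capitals but is in none of these 3 windows. The windows are chr7:150993532-150993781 on the plus strand for NOS3, chr9:130444457-130444706 on the plus strand for ASS1 and chr14:67619670-67619919 on the plus strand for ARG2.
NOS3: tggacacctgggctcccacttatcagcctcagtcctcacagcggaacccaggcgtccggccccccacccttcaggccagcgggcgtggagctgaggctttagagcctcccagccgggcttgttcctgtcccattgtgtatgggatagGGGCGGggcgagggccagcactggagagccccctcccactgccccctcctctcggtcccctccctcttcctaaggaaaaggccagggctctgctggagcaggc
ASS1: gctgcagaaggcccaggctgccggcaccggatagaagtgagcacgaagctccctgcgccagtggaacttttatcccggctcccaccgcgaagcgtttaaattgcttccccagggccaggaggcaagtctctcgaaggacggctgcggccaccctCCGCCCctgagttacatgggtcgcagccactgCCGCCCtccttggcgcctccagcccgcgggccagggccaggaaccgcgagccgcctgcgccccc
ARG2: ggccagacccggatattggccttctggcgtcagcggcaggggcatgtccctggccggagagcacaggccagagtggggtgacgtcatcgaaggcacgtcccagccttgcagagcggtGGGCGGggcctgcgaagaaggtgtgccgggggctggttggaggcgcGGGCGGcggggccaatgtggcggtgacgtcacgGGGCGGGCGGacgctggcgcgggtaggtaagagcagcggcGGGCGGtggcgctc
The NOS3 window held 1 GC box, the ASS1 window 2, and the ARG2 window 5, a pair of which overlap. GC boxes were not limited to called genes. Windows of the uncalled members CAV1, DDAH2, HSP90AA1 and NOSIP held them too, and those of DDAH1 and NOSTRIN did not. Of all 35114 RefSeq windows of this length, 42.6% held a GC box, 32.7% a half-site and 0.0399% the full element GGTCANNNTGACC. No window of a member held the full element. The second-listed start of ASS1 had 1 half-site, as did 1 of the windows each of CAV1, DDAH2 and NOSTRIN. A match describes the letters only.

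Levels below are normalized log2 levels, and a fold is a difference of their group means on the log2 scale, fitted for all 21476 tested probes together. An array detected between 18441 and 19747 probes (39.0% to 41.7%), with a median intensity of 105 to 121. The first principal component, 42.9% of the variance, set the lines apart, and on the second, 20.7%, the receptor replicates lay apart by number. The median SD of a tested probe between arrays of a group was 0.12 in both control groups and 0.20 in both receptor groups. The array probe for ESR1, the receptor's gene, was detected on 0 of 12 arrays. Its level was 4.50 ± 0.12 (SD, n = 6) in receptor cells and 4.54 ± 0.10 (SD, n = 6) in control cells (p = 0.481, exact two-sided permutation test). With no array above detection, that test compares background signal only, and it takes the 6 arrays of a line as independent. Whether the ESR1 probe can see the plasmid's transcript was not tested, and the labels give the receptor as shown by western blot. The arrays therefore do not check which cells carry the receptor. Of the 8 endothelial markers, 7 were detected on all 12 arrays and CLDN5 on 0. So were 3 of 5 epithelial markers (EPCAM, KRT8 and KRT18) detected on all 12. Detection alone therefore does not separate endothelial from epithelial character in this hybrid line.

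NOS3 was lower in receptor cells than in control cells, with or without estradiol. Its probe (ILMN_1775224, chromosome 7) was detected on 12 of 12 arrays. In control cells it stood at 10.89, 11.12 and 10.63 under vehicle in replicates 1, 2 and 3. Under estradiol the control arrays gave 10.70, 10.72 and 10.73. All 6 control arrays lay above every receptor array. Receptor cells had 9.88, 9.58 and 9.92 under vehicle. Under estradiol they had 10.00, 9.51 and 10.01. Replicate 2 was the lowest receptor array under each treatment. The order of the group means was control vehicle (10.88 ± 0.25, SD, n = 3), control estradiol (10.71 ± 0.01), receptor estradiol (9.84 ± 0.28) and receptor vehicle (9.79 ± 0.19), and the first pair and the last pair did not differ beyond their spread.

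The NOS3 fold of receptor over control cells was -1.08 ± 0.16 (SE) under vehicle, 2.12-fold lower, with a limma adjusted p of 0.00177. Under estradiol it was -0.87 ± 0.16, 1.83-fold lower (adjusted p = 0.00669). The call held in each comparison under all 12 other settings that could be run. It also held with any 1 array, or any 1 replicate of the receptor cells, left out. The adjusted p then ran up to 0.0136 under vehicle and 0.0310 under estradiol. The 50 measured genes nearest to NOS3 on its chromosome, ordered by the GRCh38.p14 annotation, had median differences of 0.04, -0.08 and -0.09 in the vehicle-treated receptor replicates, against -1.002, -1.296 and -0.956 for NOS3 itself. In RNA from whole cultures, fewer cells expressing a gene and less of its RNA per cell cannot be told apart.

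ASS1, the argininosuccinate synthase that feeds citrulline back to arginine, was higher in receptor cells by both of its bright probes. Probe ILMN_2395451 (transcript variant 2, chromosome 9) gave 8.76, 8.83 and 8.85 in control cells under vehicle. Receptor cells under vehicle gave 9.89, 9.54 and 9.54. The groups did not overlap. Under estradiol the control cells had 8.77, 8.71 and 8.81. Receptor cells under estradiol had 10.15, 9.86 and 9.79. Receptor replicate 1 was the highest array of its group both times. Probe ILMN_1708778 (variant 1) read 8.66, 8.71 and 8.90 in control vehicle cultures. It read 9.73, 9.44 and 9.56 in receptor vehicle cultures. With estradiol the control arrays were at 8.70, 8.76 and 8.73 and the receptor arrays at 10.09, 9.99 and 9.86, again without overlap.

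The fold of ILMN_2395451 was 0.84 ± 0.13 under vehicle (1.79-fold, limma adjusted p = 0.00215) and 1.17 ± 0.13 under estradiol (2.25-fold, adjusted p = 1.53e-04). That of ILMN_1708778 was 0.82 ± 0.12 (1.77-fold, adjusted p = 0.00131) and 1.25 ± 0.12 (2.38-fold, adjusted p = 4.00e-05). Both probes were called in both comparisons under every setting that tested them. Neighbouring genes of ASS1 stood on the other side of 0, with medians from -0.15 to -0.02 over the 6 receptor arrays. The other ASS1 probe, ILMN_1688234 (variant 1), disagreed. It was dim, at 4.61 to 5.19, and was detected on 8 of 12 arrays but on 0 of 3 control vehicle arrays. Its group means were 4.72 (control vehicle), 5.05 (control estradiol), 4.98 (receptor vehicle) and 5.04 (receptor estradiol). The receptor vehicle mean, with 2 of 3 arrays detected, was above the control vehicle mean, but the difference was not called (limma adjusted p = 0.232). Under estradiol the fold was -0.01 ± 0.12 (adjusted p = 0.977). ASS1 has many processed pseudogenes, and no probe sequence was used here to see which transcripts each probe matches.

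**Figure D1:**
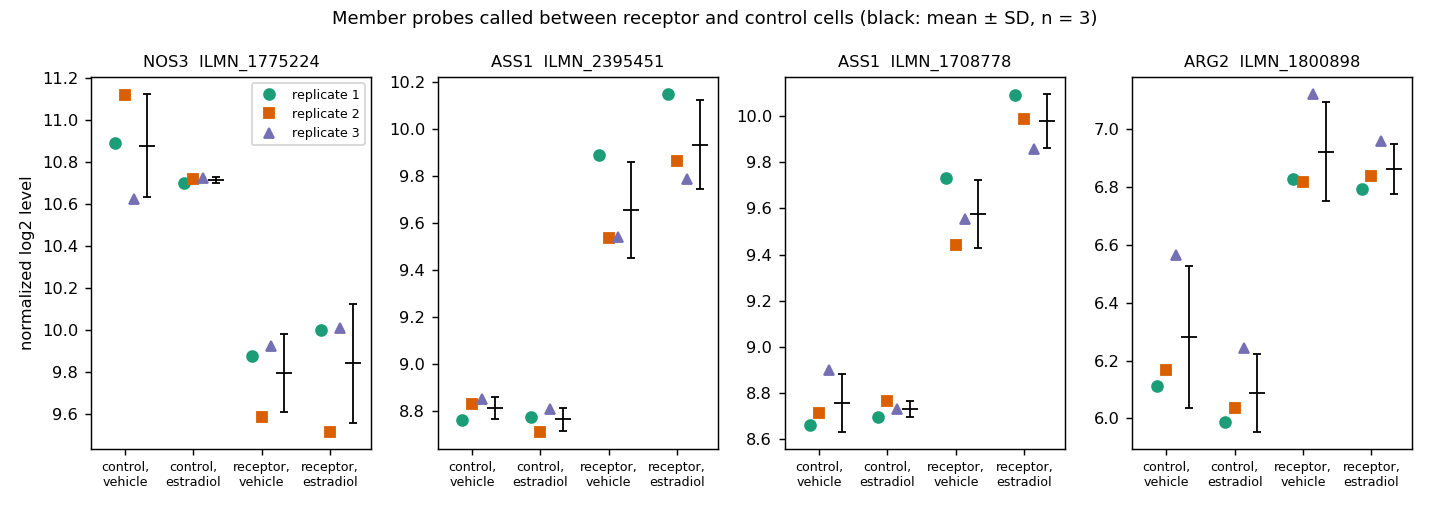
Normalized log2 level of the 4 member probes called between receptor and control cells, on the 12 arrays. Points are arrays, marked by replicate number, and the black bar is the mean ± SD of 3 arrays. Every receptor array lies below every control array for NOS3 and above every control array for both ASS1 probes and ARG2, and each panel has its own vertical scale, which does not start at 0.

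ARG2, the arginase that competes for the same substrate, was also higher in receptor cells. Its probe (ILMN_1800898, chromosome 14, detected on 12 of 12 arrays) stood at 6.11, 6.17 and 6.56 in control cells under vehicle. Receptor cells under vehicle were at 6.83, 6.82 and 7.12. With estradiol the control arrays read 5.99, 6.03 and 6.24. Receptor arrays with estradiol read 6.79, 6.84 and 6.96. Replicate 3 was the highest array in all 4 groups, and the lines did not overlap. The fold was 0.64 ± 0.14 under vehicle (1.56-fold, limma adjusted p = 0.0177) and 0.77 ± 0.14 under estradiol (1.71-fold, adjusted p = 0.00626). Under vehicle the call was lost without control vehicle replicate 1 (fold 0.56, adjusted p = 0.0834) or 2 (0.58, 0.0896), without replicate 2 of both receptor groups (0.69, 0.0526) and with only the 2 groups in the fit (0.64, 0.0506), while under estradiol it held each time. Without background correction the folds were smaller, 0.31 and 0.35, and in the authors' normalized values 0.34 and 0.39, all of them called.

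In all, 4 of 16 member probes were called under vehicle, 3 higher (both bright ASS1 probes and ARG2) and 1 lower (NOS3). The same comparison called 7.34% of all tested probes, 3.26% higher and 4.08% lower. Under estradiol the count was again 4, from the same 3 genes, against 6.19% of all probes, 2.72% higher and 3.47% lower. The arrays of the lines did not overlap for 10 of 16 member probes under vehicle and for 12 of 16 under estradiol, where 28.3% and 25.8% of all probes did not. The median fold over the member probes was 0.16 under vehicle and 0.25 under estradiol, beside -0.01 over all probes in each. The receptor comparison also holds any other difference between the stably transfected populations, which the design cannot tell apart from the receptor. Among cell type markers, the keratins KRT8 (0.87 ± 0.17, adjusted p = 0.00877) and KRT18 (0.87 ± 0.15, adjusted p = 0.0039) were higher in receptor cells under vehicle. Under estradiol they were higher as well (0.79 and 0.82). EPCAM, detected on 12 of 12 arrays, was not called (0.05, adjusted p = 0.954, and 0.13, adjusted p = 0.875). KRT19 was detected on 4 of 12 arrays, so no fold is given. In the fit it was higher in receptor cells under estradiol (limma adjusted p = 0.00548) and not called under vehicle (adjusted p = 0.779). Since it was undetected on most arrays, these p-values are not read as a difference between the lines. The summed level of the 5 epithelial markers on the linear scale ran from 1073 to 1359 over control arrays and from 1684 to 2349 over receptor arrays, with CDH1 detected on 0. The summed level of the 8 endothelial markers overlapped between lines (13669 to 16669 and 11124 to 16918), and none was called. Most of the detected ones were nevertheless lower in receptor cells under vehicle. Their folds were -0.85 (VWF), -0.45 (TIE1), -0.44 (TEK), -0.37 (PECAM1), -0.14 (CDH5), -0.07 (ESAM) and 0.14 (ROBO4). With estradiol they were -0.41, -0.29, -0.41, -0.23, 0.06, -0.03 and 0.08 in that order. The lowest limma adjusted p was 0.139, for TEK under vehicle. For smooth muscle and fibroblasts, ACTA2 was detected on 12 of 12 arrays (0.21 under vehicle, adjusted p = 0.275) and COL1A2 on 9 (0.25, adjusted p = 0.413), COL1A1 on 1, and MYH11, CNN1 and PDGFRB on 0. The sums over these 6 markers were 2782 to 3152 in control and 3048 to 3789 in receptor cells. Of the leukocyte markers, CD14 was detected on 8 arrays (-0.09 under vehicle, adjusted p = 0.850), ITGAM on 2, and PTPRC and CD3E on 0. The part of these marker differences in the member folds was not tested.

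**Figure D2:**
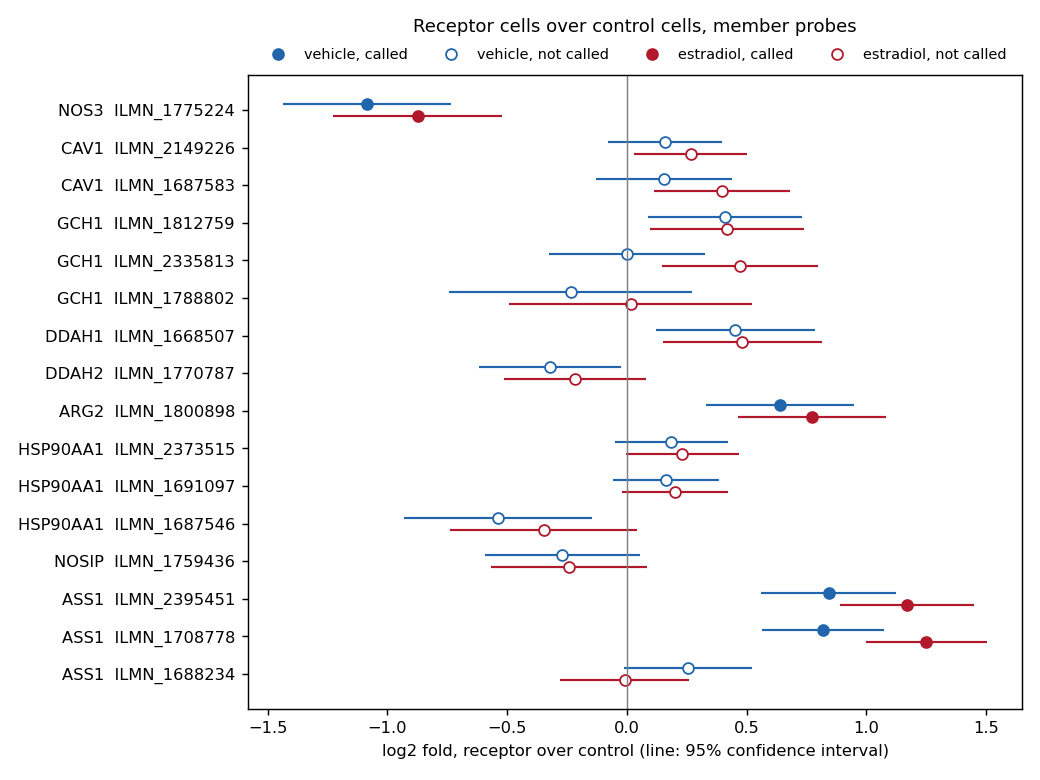
Log2 fold of receptor over control cells for the 16 tested member probes, under vehicle (blue) and under estradiol (red), with 95% confidence intervals from the fit. Filled points are called at an adjusted p under 0.05. NOS3 alone has called folds below 0, at -1.08 and -0.87.

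CAV1, the caveolin that keeps the synthase inactive, was not called. Probe ILMN_2149226 had 13.70 ± 0.14 in control and 13.86 ± 0.01 in receptor cells under vehicle (SD, n = 3 each), a fold of 0.16 ± 0.11 (limma adjusted p = 0.406). Under estradiol its fold was 0.27 ± 0.11 (adjusted p = 0.180). Probe ILMN_1687583 gave 0.16 ± 0.13 (adjusted p = 0.508) and 0.40 ± 0.13 (adjusted p = 0.0983). The estradiol value of the latter came out called without background correction (adjusted p = 0.0440), in the authors' normalized values (0.0438), with an intensity trend (0.0425), with the neighbours' median subtracted (0.0449) and without replicate 1 of the receptor cells (0.0195). ILMN_2149226 was called under estradiol in 2 of these, without background correction (0.0488) and with the neighbours subtracted (0.0495).

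The chaperone HSP90AA1 had bright probes that differed little and a dim probe with the other sign. ILMN_2373515 (variant 2) and ILMN_1691097 (variant 1) had folds of 0.19 ± 0.11 and 0.16 ± 0.10 under vehicle, and 0.23 ± 0.11 and 0.20 ± 0.10 under estradiol. None was called, and the lowest limma adjusted p of the 4 was 0.238. The dim probe ILMN_1687546, also given as variant 1, read 6.23, 6.37 and 6.42 in control cells under vehicle and 5.51, 5.97 and 5.92 in receptor cells. That is a fold of -0.54 ± 0.18 (adjusted p = 0.0928), called without replicate 3 of the receptor cells (0.0458) and with the neighbours subtracted (0.0390). It was also called with the replicate number as a block across the lines (0.0283), though no label links the numbers of the lines to each other. Under estradiol the fold was -0.35 ± 0.18 (adjusted p = 0.293), the groups overlapped, and it was -0.13 without receptor estradiol replicate 1. HSP90AA1 has a close paralogue and several pseudogenes, so these probes may not read the same transcripts.

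The trafficking partner NOSIP had 10.41, 10.36 and 10.50 in control cells under vehicle and 9.84, 10.37 and 10.25 in receptor cells. Receptor replicates 1 and 3 lay below the control range and replicate 2 within it. The fold was -0.27 ± 0.15 (limma adjusted p = 0.301) under vehicle and -0.24 ± 0.15 (adjusted p = 0.393) under estradiol. The 50 nearest measured genes on chromosome 19 were also low in replicate 1: their median difference was -0.36, -0.15 and -0.03 in receptor replicates 1, 2 and 3 under vehicle, where NOSIP had -0.58, -0.05 and -0.17. Under estradiol the neighbours had -0.35, -0.01 and 0.00, and NOSIP -0.47, -0.25 and 0.00. With the neighbours' median subtracted the NOSIP folds were -0.09 and -0.12. NOSTRIN, the other trafficking partner, was detected on 1 of 12 arrays (receptor vehicle replicate 2), at 4.33 to 4.95 over all arrays, so its level was not measurable at this signal.

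**Figure D3:**
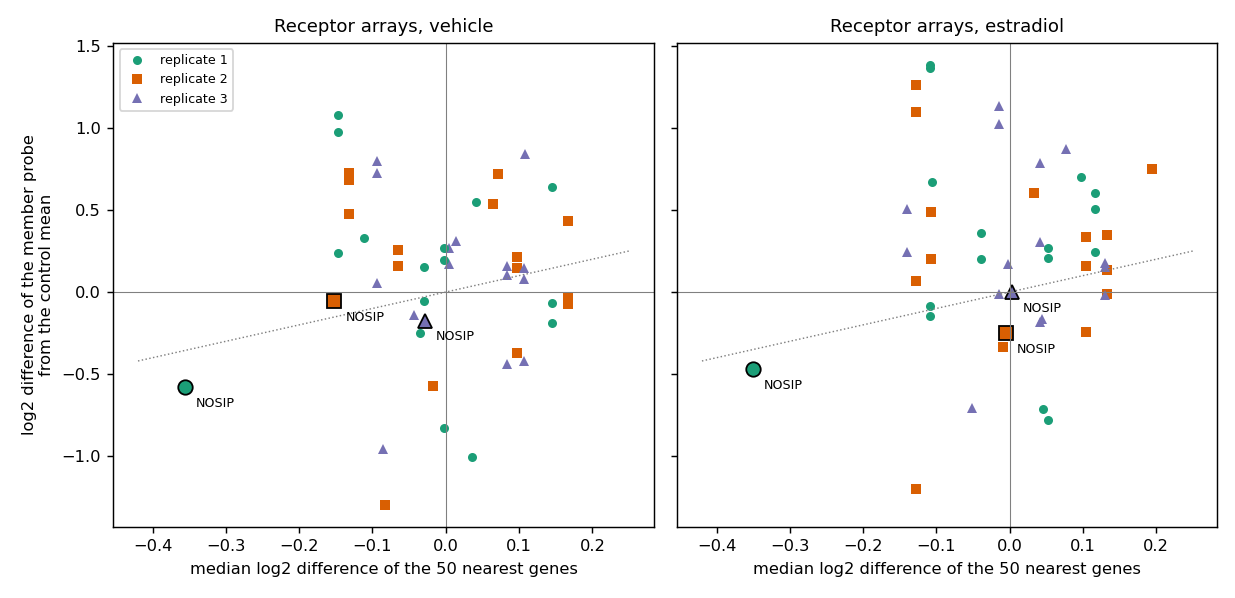
Difference of each member probe from the control mean of its treatment (vertical, log2) against the median difference of the 50 nearest measured genes (horizontal, log2), for the 3 receptor arrays under vehicle (left) and under estradiol (right). The dotted line marks equal values and the outlined points are NOSIP. In replicate 1, the neighbours of NOSIP stand at -0.36 and -0.35, farther from 0 than those of any other member.

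For cofactor synthesis, GCH1 was read by 3 probes, none of them called. ILMN_1812759 (variant 4, detected on 12 of 12 arrays) had 6.20, 6.02 and 6.12 in control and 6.75, 6.54 and 6.27 in receptor cells under vehicle, a fold of 0.41 ± 0.15 (limma adjusted p = 0.115). Under estradiol it had 0.42 ± 0.15 (adjusted p = 0.122). Leaving out receptor vehicle replicate 3 (adjusted p = 0.0467), or replicate 3 of both receptor groups (0.0328), made the vehicle value a call. ILMN_2335813 (variant 3, 11 of 12 arrays) had 0.00 ± 0.15 under vehicle and 0.47 ± 0.15 (adjusted p = 0.0862) under estradiol, called without receptor estradiol replicate 2 (0.65, adjusted p = 0.0222). ILMN_1788802 (variant 1), detected on 6 of 12 arrays, had -0.23 ± 0.24 and 0.02 ± 0.24. The 3 probes thus had folds of different sign under vehicle, and folds from 0.02 to 0.47 under estradiol.

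DDAH1, which clears the inhibitory methylarginines, stood at 8.255, 8.134 and 8.002 in control cells and at 8.457, 8.852 and 8.441 in receptor cells under vehicle. Those arrays did not overlap, and the fold of 0.45 ± 0.15 was not called (limma adjusted p = 0.0951). Under estradiol it was 0.48 ± 0.15 (adjusted p = 0.0872). Both became calls without replicate 3 of the receptor cells, at 0.52 (adjusted p = 0.0279) and 0.64 (0.0122). DDAH2, its homologue on chromosome 6, had 7.22, 7.17 and 7.52 in control and 7.06, 6.73 and 7.17 in receptor cells under vehicle. Its folds were -0.32 ± 0.14 (adjusted p = 0.174) and -0.22 ± 0.14 (adjusted p = 0.395).

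Estradiol itself moved no member past the test in either line. In receptor cells 0 of 16 member probes were called and 1 had an unadjusted p under 0.05, where 0.0605% of all probes were called (13 of 21476, all higher). The arrays of the treatments did not overlap for 3 of 16 member probes (CAV1 ILMN_2149226, HSP90AA1 ILMN_1691097 and ASS1 ILMN_1708778), and for 5.49% of all probes. With line and replicate number as a block, which the correlations of the receptor replicates allow, 26 (fixed block) or 55 (random block) of all probes were called and still 0 members. NOS3 had a fold of 0.05 ± 0.16 (95% confidence interval -0.31 to 0.40 on the log2 scale, or 0.809 to 1.32 times the vehicle level). That interval is from the fit without a replicate block, so it includes the spread between the replicates. By replicate number, NOS3 was higher with estradiol in replicates 1 and 3 and lower in replicate 2. The highest folds among the member probes were those of 2 ASS1 probes. ILMN_1708778 was higher with estradiol in 3 of 3 same-numbered pairs, by 0.36, 0.55 and 0.30, and ILMN_2395451 in 3 of 3 as well, by 0.26, 0.33 and 0.25. Their folds were 0.40 ± 0.12 (limma adjusted p = 0.893) and 0.28 ± 0.13 (adjusted p = 1.00), and under the random block the adjusted p was 0.132 and 0.429. ARG2 had -0.06 ± 0.14, and the remaining member probes lay between -0.12 (HSP90AA1 ILMN_1691097) and 0.18 (CAV1 ILMN_1687583).

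In control cells 0 of 21476 probes were called (0% of all), 528 had an unadjusted p under 0.05, and 0 of 16 member probes were called. Groups did not overlap for 3 member probes and for 11.1% of all probes. NOS3 had -0.16 ± 0.16, and the ASS1 probes -0.05 ± 0.13 (ILMN_2395451) and -0.03 ± 0.12 (ILMN_1708778). The lowest member was GCH1 ILMN_2335813, at -0.31 ± 0.15 (limma adjusted p = 1.00), detected on 2 of 3 control estradiol arrays. ASS1 ILMN_1688234 was detected on 3 of 3 control estradiol arrays (mean 5.05) and on 0 of 3 control vehicle arrays (mean 4.72). The difference was not called (adjusted p = 1.00). The difference of the estradiol responses, receptor minus control, was tested directly and called 0.0279% of all probes (6) and 0 members. It was 0.21 ± 0.23 for NOS3 (limma adjusted p = 1.00), 0.43 ± 0.17 for ASS1 ILMN_1708778 (adjusted p = 1.00), 0.33 ± 0.18 for ILMN_2395451 and 0.47 ± 0.21 for GCH1 ILMN_2335813 (adjusted p = 1.00). Of the 16 member probes, 2 had an unadjusted p under 0.05 for this difference. The estradiol comparisons share their vehicle arrays with the receptor comparison under vehicle.

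**Figure D4:**
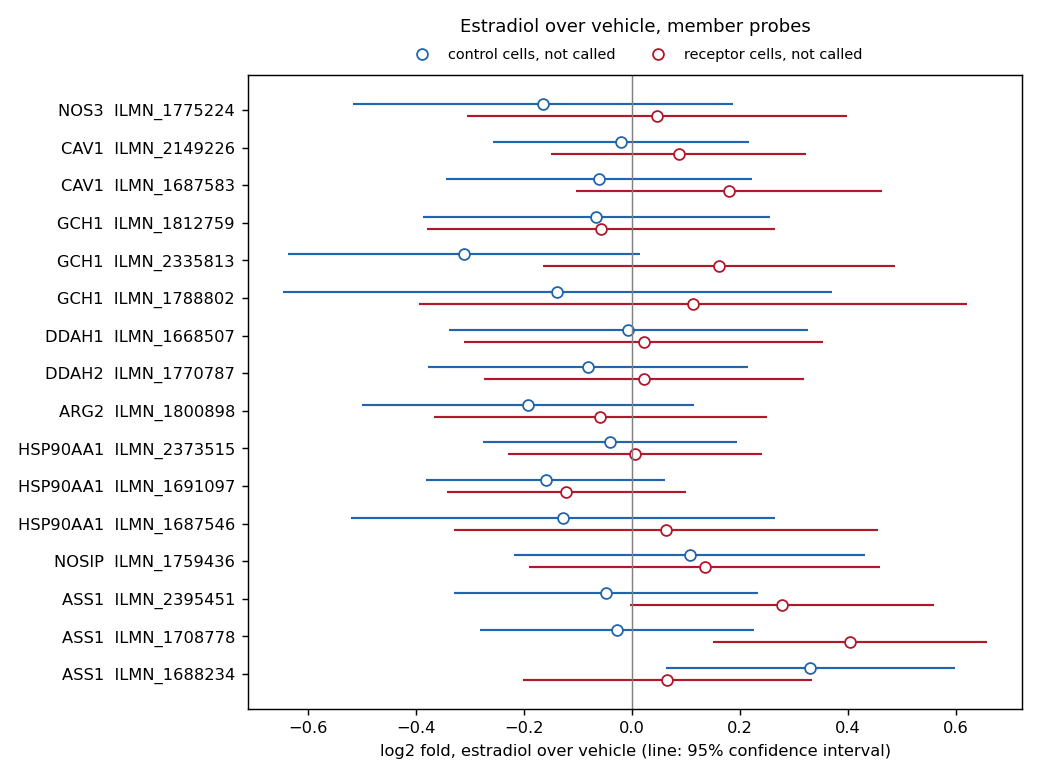
Log2 fold of estradiol over vehicle for the 16 tested member probes in control cells (blue) and receptor cells (red). Lines are 95% confidence intervals from the fit without a replicate block, which does not use the pairing of the receptor arrays. All points are open because none was called. The receptor-cell interval of ASS1 ILMN_1708778 and the control-cell interval of ASS1 ILMN_1688234, a probe not detected on control vehicle arrays, are the ones that leave out 0.

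Other genes of the pathway were read from a list of 48 genes, of which 36 (52 probes) could be tested. NOS1 and NOS2, the other synthases, were not tested, nor were the soluble guanylate cyclase subunits GUCY1A1, GUCY1A2 and GUCY1B1, the receptors of nitric oxide. Under vehicle 3 of 52 probes were called (5.77%, below the 7.34% of all probes), 1 higher and 2 lower, with a median fold of 0.04. GCHFR, the feedback regulator that inhibits GCH1, was higher at 0.70 ± 0.15 (limma adjusted p = 0.0153), with levels of 6.68, 6.62 and 6.73 in control and 7.11, 7.42 and 7.60 in receptor cells. SLC7A2, an arginine transporter, was lower at -0.64 ± 0.14 (adjusted p = 0.0140). Its probe is dim, with means of 5.62 in control and 4.98 in receptor cells, so the size of its fold depends on the background step. Without background correction the SLC7A2 fold was -0.18. CAVIN1, a coat protein of caveolae, was lower at -0.47 ± 0.12 (adjusted p = 0.0296). GCHFR and SLC7A2 lost the call without control vehicle replicate 1 (adjusted p = 0.0562 and 0.0610) or 2 (0.0718 and 0.0668), and GCHFR also without replicate 2 of the receptor vehicle arrays (0.0591) or of both receptor groups (0.0547). CAVIN1 lost it in 6 of 9 such omissions (adjusted p up to 0.129), with cyclic loess (0.0541) and with only the groups compared (0.0733).

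Under estradiol 6 of 52 were called (11.5%, against 6.19% of all probes), 2 higher and 4 lower, with a median fold of 0.01. GCHFR had 0.71 ± 0.15, SLC7A2 -0.66 ± 0.14 and CAVIN1 -0.42 ± 0.12 (limma adjusted p = 0.0144, 0.0120 and 0.0493). CAV2, the partner of CAV1 in caveolae, was called by 1 of 3 probes (ILMN_2360730, 0.87 ± 0.22, adjusted p = 0.0314), and the other two had 0.19 and 0.29. ASL, the enzyme that follows ASS1 in arginine synthesis, was called by 1 of 2 tested probes (ILMN_1685037, -0.64 ± 0.17, adjusted p = 0.0438), and the other had -0.02. Under vehicle the called ASL probe had the other sign, 0.13 ± 0.17 (adjusted p = 0.696). Its means were 5.02 (control vehicle), 5.58 (control estradiol), 5.15 (receptor vehicle) and 4.94 (receptor estradiol). The probe is dim, and its fold under estradiol was -0.18 without background correction, -0.21 in the authors' normalized values and -0.34 with an offset of 50. None of those 3 was called. ADH5, which removes S-nitrosoglutathione, had -0.50 ± 0.10 (adjusted p = 0.0109). With the median of its neighbouring genes subtracted the ADH5 fold was -0.27 and was not called (adjusted p = 0.121). Under vehicle the same subtraction took it from -0.19 to 0.02, neither called. Leaving out 1 array or 1 receptor replicate ended the call in 7 of 9 cases for CAV2 and CAVIN1, 6 for ASL, 3 for ADH5 and 1 each for SLC7A2 and GCHFR. Of the other settings, 7 of 11 ended the ASL call, 4 of 12 that of CAVIN1, 2 of 11 that of CAV2 and 2 of 12 that of ADH5. Among these settings, the random replicate block ended the calls of CAVIN1 (adjusted p = 0.0569) and ASL (0.0637), and the fixed block of replicate number that of CAVIN1 (0.0512). SLC7A2 was detected on 1 of 3 receptor estradiol arrays, and without background correction its folds were -0.18 in both comparisons. Estradiol over vehicle called 0 of the 52 in either line.

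**Figure D5:**
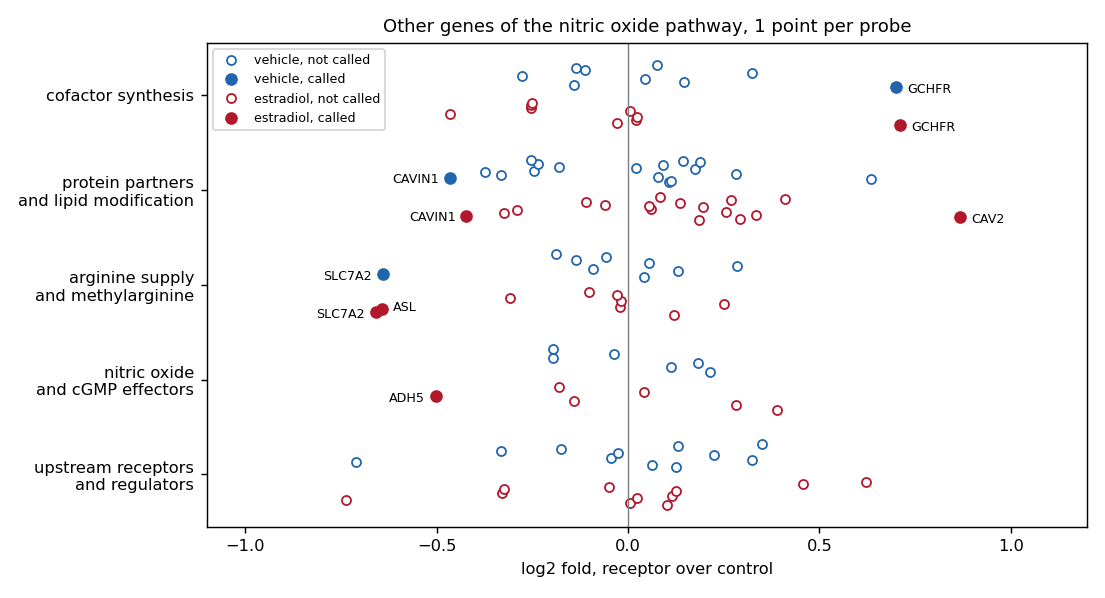
Log2 fold of receptor over control cells for the 52 tested probes of the pathway list, by role, under vehicle (blue) and under estradiol (red). Filled points are called and named. GCHFR, at 0.70 and 0.71, and SLC7A2, at -0.64 and -0.66, are called in both comparisons, as is CAVIN1. The SLC7A2 probe is dim and near the background in receptor cells, which limits its folds.

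Across the 12 arrays, the 5 genes of 12096 whose levels followed NOS3 most closely were LRRC8A (Pearson r = 0.986), a subunit of the volume-regulated anion channel, ADAM15 (0.982), a membrane metalloprotease, CACNG6 (0.979), a calcium channel subunit, PIP4K2C (0.979), a lipid kinase, and ATP6V0A1 (0.974), a subunit of the vacuolar proton pump. In each of them, as in NOS3, all receptor arrays lay below all control arrays, and the correlations include that split between the lines. Among the members, r with NOS3 ran from -0.88 (ASS1 ILMN_1708778) and -0.86 (ARG2) to 0.73 (DDAH2). These values are descriptions over arrays that share 2 cell populations.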

How the data were processed

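Per the labels' protocols, total RNA was amplified, labelled with biotin and hybridised to Illumina BeadChips, 12 arrays in 4 groups of 3. The authors deposited a table of non-normalized bead intensity with a detection p-value per probe and array, and normalized intensities, for which lumi is named without a version in the submitters' processing notes. Of 47322 probes 1 lacked values and was left out. The deposited intensities were processed with neqc (limma 3.58.1, R 4.3.3), which corrects the background using the detection p-values, adds an offset of 16, quantile normalises and takes log2. Positions and current symbols came from RefSeq on GRCh38.p14, since no build is given in the sources used here.

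Probes with a detection p under 0.05 on at least 3 arrays (21476) were fitted with 4 group means on all 12 arrays (lmFit and eBayes, 8 residual and 5.02 prior degrees of freedom). P-values were adjusted by Benjamini-Hochberg over all of them in each of 5 comparisons, two-sided, with calls made below 0.05. The number of arrays limits the precision. The study calls the arrays biological replicates. Where these were cultures of the same cells, p-values measure only their spread.

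Deviations from the group mean correlated between same-numbered vehicle and estradiol arrays at 0.73, 0.36 and 0.65 in receptor cells, whose numbers were therefore taken to pair the arrays. In control cells the correlations were 0.08, 0.04 and 0.10, too low for pairing to be taken as given. A low correlation does not show that the control arrays were unpaired. The reported fit has no replicate block, and the fits with one were alternatives. The members, lists and the rule for named genes (all members, pathway genes called in a comparison, and the 5 genes most correlated with NOS3) were chosen with earlier results of these data known. Motif counts and figures were made in Python 3.11.15 with pandas 2.3.3, numpy 2.4.6, scipy 1.17.1 and matplotlib 3.10.9.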

Additional observations from a re-analysis of the deposited data

How the results depend on the processing

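The direction and call of NOS3 and of both bright ASS1 probes between the lines held under every alternative that tested them: no background correction, cyclic loess, the authors' normalized values, an offset of 50, 2 other detection filters, 1 probe per gene, an intensity trend, only the groups compared, replicate blocks, subtraction of the neighbours' median and omission of arrays. A chip block was not run because the headers give no chip. The count of pathway probes called under vehicle was 3, against 6 without background correction and 6 in the authors' values, 5 with an offset of 50 and 5 with a trend. Under estradiol, only the groups compared gave 822 probes against 1330, and 2 pathway probes against 6. For estradiol in receptor cells, a block of line and replicate number gave 26 (fixed) or 55 (random) probes against 13, and only the groups compared gave 1. The random block gave 11 against 6 for the difference of responses. Blocks changed no member call except that of HSP90AA1 ILMN_1687546 under vehicle (-0.54, adjusted p = 0.0283 with the number across lines, a link that no label gives).

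With arrays left out, the counts ran from 551 to 3073 under vehicle (members 3 to 7, pathway 0 to 6), from 622 to 2906 under estradiol (members 4 to 5, pathway 1 to 10), from 7 to 17 for estradiol in receptor cells and from 1 to 8 for the difference. The lowest vehicle count lacked control vehicle replicate 2, the lowest estradiol count control estradiol replicate 1, and both highest counts replicate 3 of the receptor cells. These omissions turned the sign of uncalled folds: GCH1 ILMN_2335813 under vehicle (-0.057 to 0.035), and under estradiol GCH1 ILMN_1788802 (-0.19 to 0.19), ASS1 ILMN_1688234 (-0.049 to 0.038) and ASL ILMN_2379393 (-0.17 to 0.063). For estradiol over vehicle they turned NOS3 (-0.059 to 0.21) and ARG2 (-0.11 to 0.040) in receptor cells and ASS1 ILMN_1708778 (-0.076 to 0.043) in control cells. Subtracting the neighbours' median turned GCH1 ILMN_2335813 (-0.13) and ADH5 (0.021) under vehicle, and GCH1 ILMN_1788802 (-0.080) and ASS1 ILMN_1688234 (0.074) under estradiol. The cause of these changes was not tested, beyond the smaller number of arrays. Dim probes (NOSTRIN, ASS1 ILMN_1688234, GCH1 ILMN_1788802, SLC7A2, ASL ILMN_1685037) lie near the background, which limits their folds.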
